A study of Rattus norvegicus with 7 samples.

Results

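The genes described here are the innate microbial sensing genes of the rat colon crypt: the receptors that detect bacterial and viral molecules, the adaptors and kinases that carry their signal, the inflammasome core and the inhibitors of the pathway. They were chosen by symbol, as all Toll-like receptor (Tlr), NLR (Nlrp, Nlrc and Nlrx), Nod, Pglyrp, Irak and Traf genes of the table plus 18 named signalling genes. The rule uses no expression values, but it was made with earlier results of these data known. The rule found 47 of the 16468 genes of the RNA sequencing table. Tirap, Ticam1, Aim2, Nfkb1 and Tnfaip3, which the rule also names, were not analysed here.

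RNA was sequenced from colon crypts of Sprague Dawley rats, an outbred strain, aged 14 weeks. The distal colon (distal crypts) and the proximal colon (proximal crypts) each gave 1 library. Each library came from a pool of 7 rats, and the labels give no treatment or mutation for either region. With 1 pooled library per region the spread between rats cannot be measured, so each difference below compares 2 libraries and has no replicate check. The 5 chromatin immunoprecipitation libraries of the series were not analysed here.

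Toll-like receptors are membrane receptors for microbial molecules such as lipopolysaccharide, lipopeptides, flagellin and double-stranded RNA. Most of them signal through the adaptor MyD88, the IRAK kinases and TRAF6 to the transcription factor NF-kB, while NOD and NLR proteins sense microbial products or damage inside the cell, and some of them assemble the caspase-1 inflammasome. The colon epithelium faces a dense bacterial community, and its receptors are known for uneven distribution between surfaces and regions of the gut.

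On the log2(FPKM + 1) scale defined below, those furthest apart among these genes were Lbp and Tlr5, followed by Tlr4, Nlrx1 and Casp1. The authors' deposited log2 fold changes put the low genes Irak3 (-1.90) and Pglyrp1 (1.77) beyond Tlr4, Nlrx1 and Casp1. The deposited table called neither Irak3 nor Pglyrp1 different. Of the genes of lipopolysaccharide recognition, the receptor and its carrier protein were higher in the distal library, with Tlr4 at 38.3 FPKM in distal and 11.8 FPKM in proximal crypts and Lbp at 12.1 FPKM in distal and 0.335 FPKM in proximal crypts, while Cd14 and Ly96 were under 2-fold apart. The flagellin receptor gene Tlr5 was lower in the distal library, at 2.54 FPKM against 22.6 FPKM in proximal crypts. The deposited expression values were read as FPKM, though no source used here names their scaling. FPKM is a fragment number divided by transcript length and by library size, so that levels of different genes can be set side by side. Comparisons between genes below rest on this reading. The inflammasome protease gene Casp1 was 2.05-fold lower in the distal library, and pan-leukocyte markers, given further on, were lower there as well. None of the 10 measured genes of MyD88, the IRAK kinases and the TRAF proteins was 2-fold apart on the log2(FPKM + 1) scale, where 7.62% of all measured genes were.

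Of the 47 genes, 31 reached 1 FPKM in at least 1 library and are called measured, and 16 did not. Differences were taken as log2((distal FPKM + 1)/(proximal FPKM + 1)), a scale that understates the differences of low genes, and genes whose log2 ratio was 1 or more in size were counted as 2-fold apart or more. By this count 3 of the 31 measured members (Lbp, Tlr4 and Nlrx1) were higher by 2-fold or more in distal crypts, where 3.71% of all 9847 measured genes were. In the other direction, 2 members (Tlr5 and Casp1) were higher by 2-fold or more in proximal crypts, where 3.91% of all measured genes were. The remaining 26 members lay under 2-fold. The median log2 ratio of the members was 0.09, the same to 2 decimals as that of all measured genes. Of the 31, 19 members had a log2 ratio above 0 and 12 below it, beside 6044 above and 3803 below among all 9847 measured genes. Log2 ratios under 0.25 in size were found for 32.3% of the measured members, against 51.9% of all measured genes, and those of at least 1 for 16.1% against 7.62%. These shares describe the list and were not tested.

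The authors' deposited table, whose model compares the 2 libraries and not rats, called 5 of the 31 members it tested, where it called 5.43% of all genes tested. They were the same 5 genes: Lbp, Tlr4 and Nlrx1 were called higher in distal crypts, as were 2.73% of all genes tested, and Tlr5 and Casp1 higher in proximal crypts, as were 2.69%. In that table a standard error of the log2 fold change is implied by the ratio of the fold change to its test statistic. Over the 31 tested members this implied error ran from 0.292 to 1.16.

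**Figure D1:**
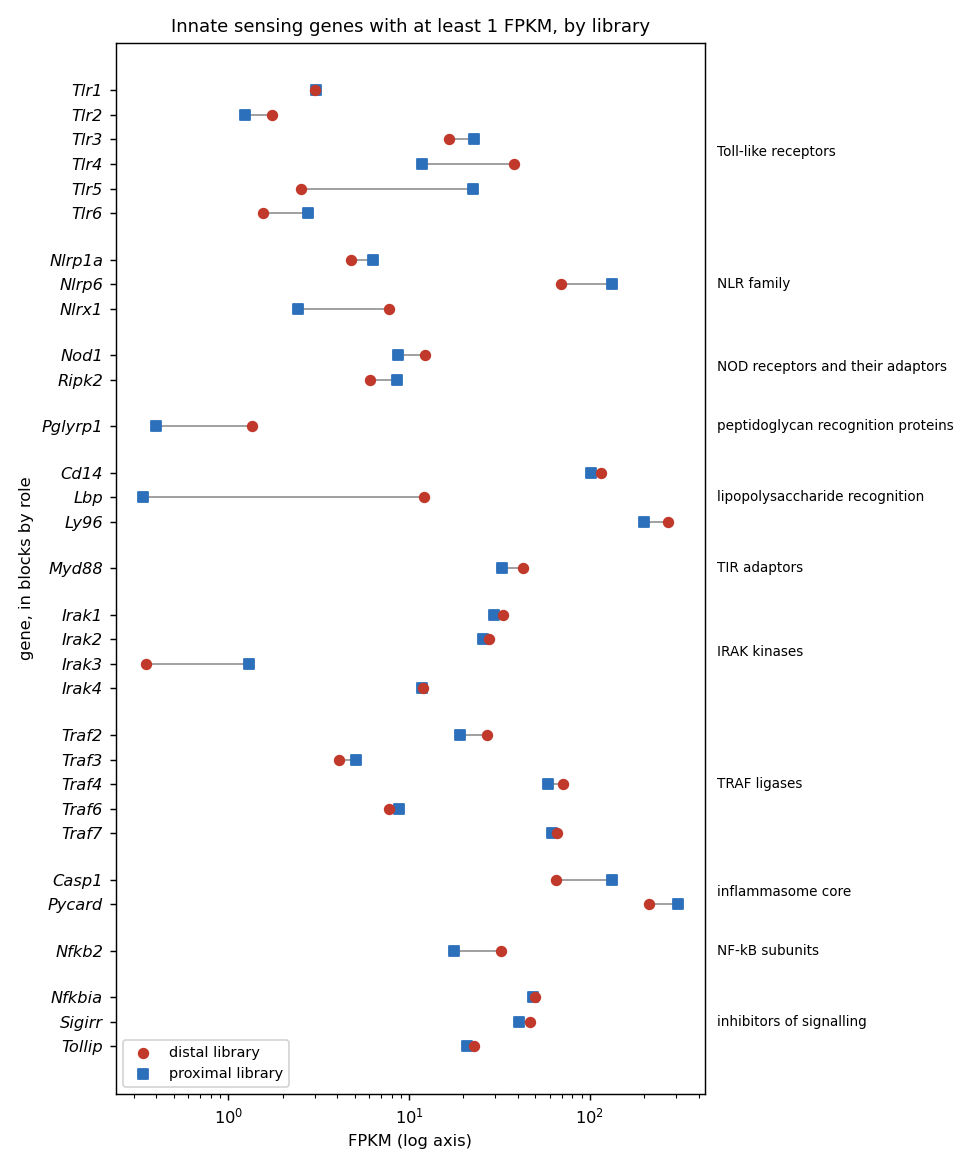
FPKM of the 31 members with at least 1 FPKM in 1 library, on a log axis, with 1 red circle for the distal and 1 blue square for the proximal library and genes in blocks by role. The pairs of symbols lie far apart for Lbp, Tlr4, Tlr5 and Nlrx1 and for the low genes Irak3 and Pglyrp1. They almost coincide for Irak4, Nfkbia and Tlr1. There is 1 library per region, so no error bars are drawn.

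Among Toll-like receptors the order of the genes differed between the libraries. Tlr4, the receptor for lipopolysaccharide, lies at chr5:83564100-83577735 of the rn4 build and was 3.23-fold higher in the distal library (38.3 FPKM, against 11.8 FPKM in the proximal library). The authors' deposited table put the log2 fold change of Tlr4 at 1.69, with an implied error of 0.32 (q = 7.52e-06). Tlr5, the receptor for bacterial flagellin, at chr13:99025501-99029755, was 8.92-fold lower in the distal library (2.54 FPKM, against 22.6 FPKM in proximal crypts). Its log2 fold change in the authors' deposited table was -3.16, with an implied error of 0.42 (q = 1.12e-11). Of the 10 Toll-like receptor genes analysed here, Tlr4 was the highest in FPKM in the distal library. Tlr3 and Tlr5 were the highest of the 10 in the proximal library. Taken within a library, the FPKM of Tlr5 was 0.0662 times that of Tlr4 in the distal library and 1.91 times that of Tlr4 in the proximal library.

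The other measured Toll-like receptor genes were under 2-fold apart. Tlr3, the receptor for double-stranded RNA, stood at 16.7 FPKM in distal and 22.9 FPKM in proximal crypts. Tlr2 forms receptors for bacterial lipopeptides together with Tlr1 or Tlr6, and all of these were low. Tlr2 was at 1.76 FPKM in distal and 1.24 FPKM in proximal crypts, Tlr1 at 3.02 FPKM in distal and 3.05 FPKM in proximal crypts, and Tlr6 at 1.56 FPKM in distal and 2.77 FPKM in proximal crypts. Tlr6, Tlr1 and Tlr10 lie next to each other on chromosome 14, with gaps of 21.6 kb and 14.6 kb in the rn4 build. They are related copies, and reads that fit more than one of them may have been split in a way the sources used here do not give, so these low values are uncertain. Tlr7, a receptor for single-stranded RNA, was at 0.0214 FPKM in distal and 0.129 FPKM in proximal crypts, and Tlr10 at 0.0886 FPKM in distal and 0.106 FPKM in proximal crypts. Tlr11 and Tlr12 were listed at 0 in both.

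Lipopolysaccharide reaches Tlr4 through a chain of helper proteins: the secreted Lbp binds it, Cd14 takes it over, and Ly96 (MD-2) holds it on the receptor. All 3 helper genes stood higher in the distal library, by very different amounts, as did 6044 of all 9847 measured genes. The deposited table called Lbp and did not call Cd14 or Ly96. With equal upper quartiles the log2 ratio was 3.14 for Lbp, 0.275 for Ly96 and 0.0225 for Cd14, the last close to 0. Lbp, at chr3:149016605-149043530 of the rn4 build, showed the largest difference of all members, with 12.1 FPKM in distal and 0.335 FPKM in proximal crypts. Its proximal value is of the size of a few reads, by an estimate described with the processing below. For short genes of about 942 bases, 3 reads stood near 0.426 FPKM in the proximal library by that estimate. No fold is given below that level. For Lbp, a log2 fold change of 5.17 with an implied error of 0.69 (q = 1.44e-11) stands in the authors' deposited table. Cd14 was at 116 FPKM in distal and 101 FPKM in proximal crypts, and Ly96 at 273 FPKM in distal and 200 FPKM in proximal crypts. Ly96 was among the highest genes of both libraries, above 97.6% of the measured genes in distal and 97.0% in proximal crypts. The ratio of Ly96 to Tlr4, in FPKM, was 7.11 in distal and 16.9 in proximal crypts.

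**Figure D2:**
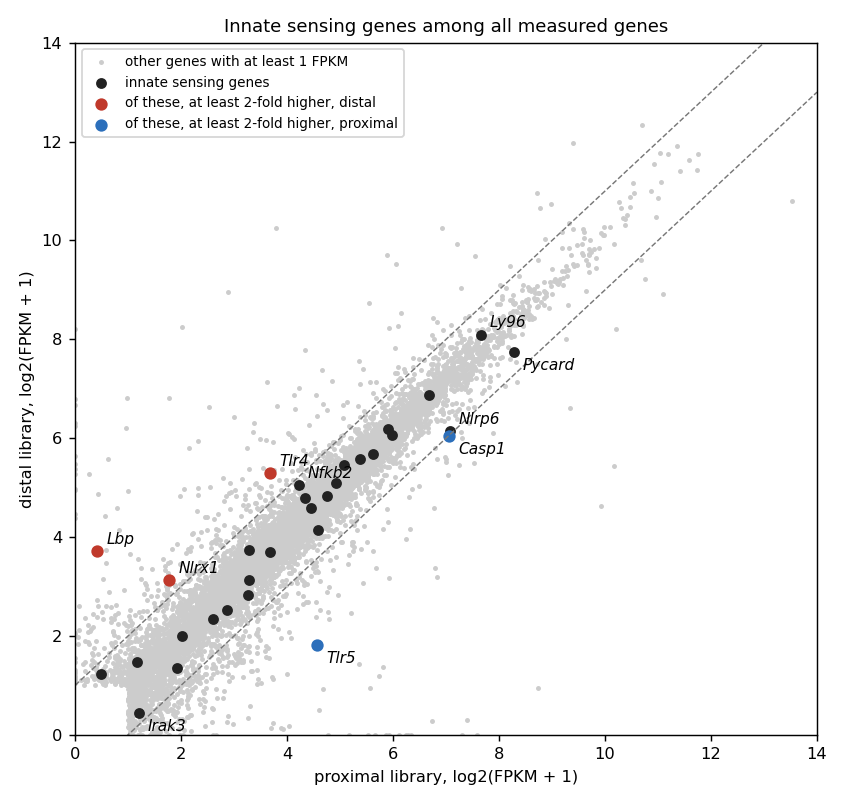
Log2(FPKM + 1) of the 9847 measured genes in the distal (vertical) and proximal (horizontal) library, in grey, with the 31 measured members on top and dashed lines at a 2-fold difference. Lbp, Tlr4 and Nlrx1 (red) lie above the upper line, Tlr5 and Casp1 (blue) below the lower one, and Nlrp6 just inside it.

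Members of the NLR family ranged from among the most abundant to listed at 0. Nlrp6, an inflammasome sensor known from intestinal epithelium, stood at 69.7 FPKM in distal and 133 FPKM in proximal crypts, 1.91-fold lower in the distal library and just under the 2-fold limit. Its log2 ratio of -0.92 became -1.02 after setting the median ratio of all measured genes to 0, and -1.09 with equal upper quartiles. Nlrp6 was above 86.8% of the measured genes in distal and 94.7% in proximal crypts. Nlrx1, an NLR protein located at mitochondria, went the other way and was 3.19-fold higher in the distal library, at 7.77 FPKM against 2.44 FPKM in the proximal library. The authors' deposited table gave Nlrx1, at chr8:47230800-47246976 of the rn4 build, a log2 fold change of 1.68, with an implied error of 0.48 (q = 0.0128). With a pseudocount of 5 FPKM in place of 1 FPKM its log2 ratio was 0.78, under the 2-fold limit. Nlrp1a stood at 4.77 FPKM in distal and 6.29 FPKM in proximal crypts. Nlrp3, the inflammasome sensor best known from macrophages, was near the limit of detection, at 0.0915 FPKM in distal and 0.0216 FPKM in proximal crypts. Nlrp12 and Nlrp5 were at 0.0202 and 0.0246 FPKM in the distal library and were listed at 0 in the proximal library. The deposited p of both matched the one assumed here to mark 1 read. Nlrp4, Nlrp4a, Nlrp9 and Nlrp10 were listed at 0 in both libraries. Together with Tlr11, Tlr12, Pglyrp3 and Pglyrp4 they made up 8 of the 47 members at 0 in both, where 24.0% of all genes of the table were.

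The inflammasome core was abundant in both libraries and lower in the distal one. Casp1, the protease that cleaves the precursors of IL-1 beta and IL-18, stood at 64.8 FPKM in distal and 133 FPKM in proximal crypts, 2.05-fold lower in distal crypts. The authors' deposited table gave Casp1, at chr8:2027976-2036868 of the rn4 build, a log2 fold change of -1.03, with an implied error of 0.30 (q = 0.0131). Its log2 ratio lay at the 2-fold limit and was -0.98 with a pseudocount of 5 FPKM. Pycard, which encodes the adaptor ASC that links sensors to caspase-1, was the highest of all members in the proximal library, with 212 FPKM in distal and 309 FPKM in proximal crypts (1.46-fold lower in the distal library, not called). Its level exceeded that of 96.6% of the measured genes in distal and 98.3% in proximal crypts. Casp1, Nlrp6 and Pycard stood lower together in distal crypts, with log2 ratios of -1.02, -0.92 and -0.54, and of these the deposited table called Casp1 alone. Pan-leukocyte genes, given below, were also lower in distal crypts (29.8 FPKM summed, against 107 FPKM in proximal crypts), and their part in these differences was not tested. Casp4, the neighbour of Casp1 on chromosome 8 at a gap of 1.8 kb and an inflammatory caspase that binds lipopolysaccharide inside human and mouse cells, stood at 18.1 FPKM in distal and 12.1 FPKM in proximal crypts.

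Genes of peptidoglycan sensing were low or moderate. Nod1, the cytosolic sensor of peptidoglycan fragments carrying diaminopimelic acid, stood at 12.3 FPKM in distal and 8.74 FPKM in proximal crypts. Nod2, the sensor of muramyl dipeptide, was far lower, at 0.249 FPKM in distal and 0.268 FPKM in proximal crypts. Ripk2, the kinase that both receptors recruit, was at 6.09 FPKM in distal and 8.58 FPKM in proximal crypts, and Card9, an adaptor best known from myeloid cells, at 0.699 FPKM in distal and 0.190 FPKM in proximal crypts. Pglyrp1, a secreted peptidoglycan-binding protein of granulocytes, was at 1.36 FPKM in distal and 0.400 FPKM in proximal crypts.

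The signalling chain shared by most Toll-like receptors was mostly close to equal between the libraries, apart from the low gene Irak3. Myd88, the common adaptor, stood at 42.7 FPKM in distal and 32.6 FPKM in proximal crypts. Irak4, the kinase that MyD88 recruits first, was at 12.0 FPKM in distal and 11.7 FPKM in proximal crypts, Irak1 at 33.0 FPKM in distal and 29.5 FPKM in proximal crypts, and Irak2 at 27.6 FPKM in distal and 25.8 FPKM in proximal crypts. These 3 kinases were all under 1.12-fold apart, and their direction turned when the distal library was rescaled to the same upper quartile. Irak3 (IRAK-M), an inhibitory kinase known mainly from macrophages, was low, at 0.351 FPKM in distal and 1.30 FPKM in proximal crypts, and the deposited table did not call it. Its log2 ratio was -0.77, and -1.64 with a pseudocount of 0.1 FPKM in place of 1 FPKM. Ticam2, an adaptor of Tlr4, was at 0.201 FPKM in distal and 0.350 FPKM in proximal crypts.

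The 5 TRAF genes of the table encode scaffold proteins, most of them ubiquitin ligases, and all lay under 2-fold. Traf6, the ligase downstream of the IRAK kinases, was at 7.74 FPKM in distal and 8.76 FPKM in proximal crypts. Traf2 and Traf3, which also serve receptors of the tumour necrosis factor family, were at 26.8 and 4.10 FPKM in distal and at 19.2 and 5.07 FPKM in proximal crypts. Traf4 and Traf7 were the most abundant, at 71.3 and 65.9 FPKM in distal and at 58.8 and 62.0 FPKM in proximal crypts.

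Inhibitors of the pathway also differed little. Nfkbia, the inhibitor that holds NF-kB in the cytoplasm, stood at 50.1 FPKM in distal and 48.2 FPKM in proximal crypts. Sigirr, a receptor that dampens Toll-like and IL-1 signalling in the gut epithelium, was at 46.9 FPKM in distal and 40.7 FPKM in proximal crypts, and Tollip, which restrains IRAK signalling, at 23.0 FPKM in distal and 21.0 FPKM in proximal crypts. Nfkb2, whose product p100 is processed to the NF-kB subunit p52, was the furthest apart of these downstream genes, at 32.2 FPKM in distal and 17.6 FPKM in proximal crypts (1.83-fold higher in the distal library, not called). Nlrp6 and Nfkb2 were the members nearest to the 2-fold limit from below, and Casp1 the nearest from above.

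**Figure D3:**
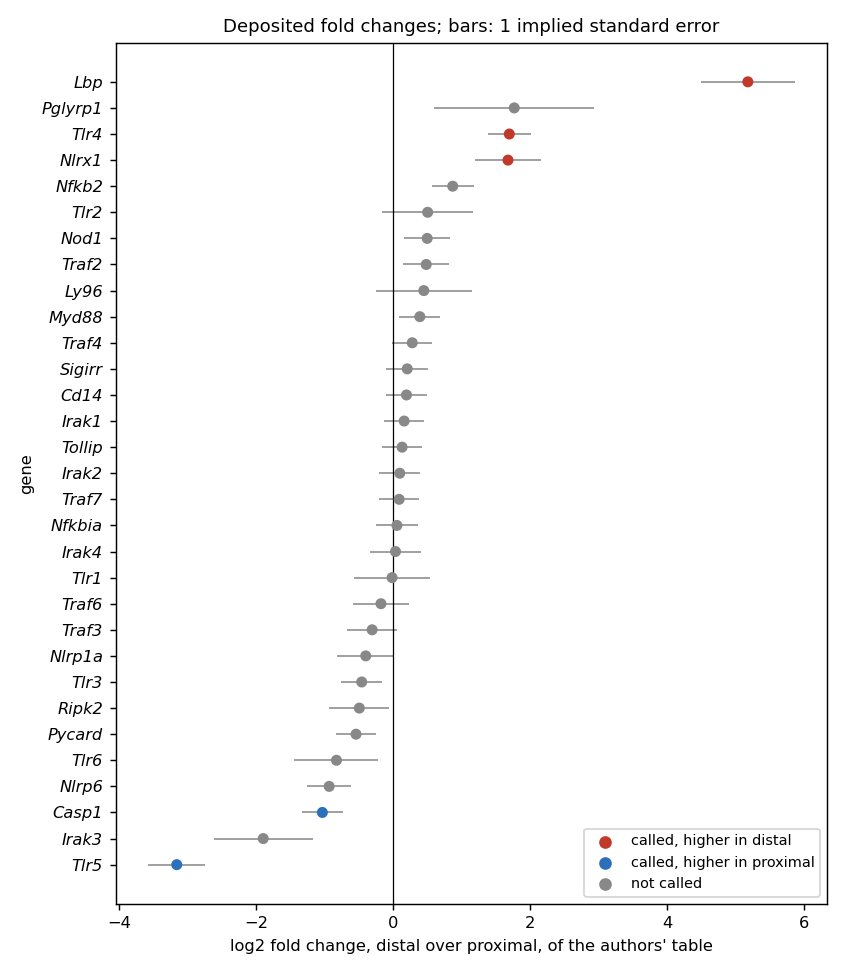
Log2 fold change of distal over proximal from the authors' deposited table for the 31 members it tested, with bars of 1 implied standard error on each side, which come from that table's model and do not measure variation between rats. Lbp, Tlr4 and Nlrx1 (red) were called higher in the distal library and Tlr5 and Casp1 (blue) higher in the proximal library; the bars of most others reach or approach 0.

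Promoters are shown for 4 of the 5 members at least 2-fold apart, because these are the members that differ most on the log2(FPKM + 1) scale. Lbp is named only. RefSeq promoters of the GRCr8 build were matched by symbol for 38 of the 47 members, among them Tlr4, Nlrx1, Tlr5 and Casp1. Each sequence gives the 250 bases before the annotated gene start, 5′ to 3′ on the strand of the gene, at chr5:85160997-85161246 (plus strand) for Tlr4, chr8:53503294-53503543 (minus strand) for Nlrx1, chr13:97182910-97183159 (plus strand) for Tlr5 and chr8:10872580-10872829 (plus strand) for Casp1. Capitals mark matches, on either strand, to 4 motifs: GAAANNGAAA for interferon regulatory factors, GAGGAA for ETS factors such as PU.1, GGGNNNTTCC for NF-kB and TTTAT for CDX and posterior HOX factors.
Tlr4: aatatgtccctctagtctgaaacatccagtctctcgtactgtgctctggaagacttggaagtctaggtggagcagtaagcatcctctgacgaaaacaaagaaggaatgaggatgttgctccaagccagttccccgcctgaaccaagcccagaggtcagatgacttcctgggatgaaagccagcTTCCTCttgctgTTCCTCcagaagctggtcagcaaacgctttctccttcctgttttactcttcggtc
Nlrx1: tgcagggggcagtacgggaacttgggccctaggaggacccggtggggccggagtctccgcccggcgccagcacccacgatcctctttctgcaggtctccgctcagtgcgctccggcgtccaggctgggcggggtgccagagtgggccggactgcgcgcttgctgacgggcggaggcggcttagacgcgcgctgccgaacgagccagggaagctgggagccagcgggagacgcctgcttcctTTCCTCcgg
Tlr5: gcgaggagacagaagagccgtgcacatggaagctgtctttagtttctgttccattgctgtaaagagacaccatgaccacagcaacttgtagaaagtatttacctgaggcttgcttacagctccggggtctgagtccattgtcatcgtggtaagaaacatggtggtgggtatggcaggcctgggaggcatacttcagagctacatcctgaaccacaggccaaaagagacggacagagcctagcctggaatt
Casp1: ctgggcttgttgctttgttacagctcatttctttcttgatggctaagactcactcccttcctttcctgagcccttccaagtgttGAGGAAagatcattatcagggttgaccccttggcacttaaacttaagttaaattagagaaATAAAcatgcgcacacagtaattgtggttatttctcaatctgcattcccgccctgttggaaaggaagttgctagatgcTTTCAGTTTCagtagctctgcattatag
The Tlr4 window held 2 matches to GAGGAA, 67 to 62 and 55 to 50 bases before the start, and the Nlrx1 window 1, 9 to 4 bases before it. In the Casp1 window there was 1 match each to GAAANNGAAA (28 to 19 bases before the start), GAGGAA (166 to 161 bases) and TTTAT (106 to 102 bases), and the Tlr5 window held none of the 4. No matches overlapped in these windows. Among the 33469 promoters of the RefSeq table, windows of the same length held GAGGAA in 23.3%, TTTAT in 39.3%, GGGNNNTTCC in 4.53% and GAAANNGAAA in 3.41%. Over all 38 members with a promoter, GGGNNNTTCC was found in 6 (15.8%), GAAANNGAAA in 4 (10.5%), GAGGAA in 15 (39.5%) and TTTAT in 11 (28.9%). Over the 26 of these that were measured, GGGNNNTTCC was found in 6 (23.1%, Nfkb2, Nfkbia, Pglyrp1, Tlr2, Traf3 and Traf7) and GAAANNGAAA in 2 (7.7%, Casp1 and Myd88). GAGGAA was found in 8 (30.8%) and TTTAT in 7 (26.9%). The RefSeq shares were not limited to measured genes, so the 26 are an unlike set to them. These matches are descriptions of the letters and were not tested.

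The crypt libraries also held RNA of immune cells, in different amounts. Of the 8 B cell markers in the table all 8 were lower by 2-fold or more in distal crypts, with a summed level of 1.53 FPKM in distal and 37.4 FPKM in proximal crypts. Cd79b, a subunit of the B cell receptor, stood at 0.502 FPKM in distal and 8.80 FPKM in proximal crypts. Ms4a1 stood at 0.202 FPKM in distal and 6.32 FPKM in proximal crypts, Pou2af1 at 0.205 FPKM in distal and 5.02 FPKM in proximal crypts, and Fcrla was listed at 0 in distal and stood at 2.94 FPKM in proximal crypts. Pan-leukocyte genes summed to 29.8 FPKM in distal and 107 FPKM in proximal crypts, with 8 of 9 measured genes lower by 2-fold or more in distal crypts, such as Ptprc, the common leukocyte antigen, at 1.44 FPKM in distal and 8.97 FPKM in proximal crypts. The others named by their size were Arhgdib, Cd37, Cd53, Coro1a and Laptm5, from 1.12 to 5.41 FPKM in distal and from 6.52 to 23.5 FPKM in proximal crypts, where Cd37 has the same listed locus as a neighbour, and Vav1 was listed at 0 in both. In such bulk libraries fewer cells of a type and less RNA per cell cannot be told apart. Tlr5, Casp1, Nlrp6, Pycard and Irak3 stood lower in distal crypts, as these markers did, and the part of the leukocytes in their differences was not tested. Lbp, Tlr4 and Nlrx1 stood higher there. Granulocyte markers were mixed, with 5 of 12 higher there, 4 lower and 3 listed at 0 in both. The part of immune cells in the differences of Lbp, Tlr4 and Nlrx1 was not tested either.

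Macrophage and monocyte markers summed to 29.6 FPKM in distal and 53.6 FPKM in proximal crypts over 19 genes, with 3 of 11 measured genes lower by 2-fold or more in distal crypts and none higher. Of their defining markers, Emr1, Cd163 and Marco were listed at 0 in both libraries, while others were detected. Cd68 was at 2.30 FPKM in distal and 2.98 FPKM in proximal crypts, and C1qa at 3.57 FPKM in distal and 3.72 FPKM in proximal crypts. C1qc was at 4.62 FPKM in distal and 2.965 FPKM in proximal crypts. It was the 1 measured marker of this list with a log2 ratio above 0, and 10 were below 0. A listed 0 need not mean that a gene was silent, since the epithelial claudin gene Cldn3 and the leukocyte gene Vav1 were at 0 in both too. Tyrobp, an adaptor of myeloid and natural killer cells, was at 4.84 FPKM in distal and 10.9 FPKM in proximal crypts, and Lyz2, whose listed locus is also that of a neighbour, at 2.50 FPKM in distal and 11.1 FPKM in proximal crypts. The 12 granulocyte markers summed to 9.90 FPKM in distal and 4.86 FPKM in proximal crypts, with 1 of 4 measured genes higher by 2-fold or more in distal crypts and none lower (median log2 ratio 0.89). That gene was S100a8, a neutrophil calcium-binding protein, at 3.19 FPKM in distal crypts and listed at 0 in proximal crypts. S100a9 was at 3.45 FPKM in distal and 1.34 FPKM in proximal crypts. Camp went the other way, at 1.88 FPKM in distal and 2.91 FPKM in proximal crypts, and Mpo, Elane and Ltf were listed at 0 in both. T cell markers summed to 16.9 FPKM in distal and 27.4 FPKM in proximal crypts over 13 genes, with 1 of 8 measured genes lower by 2-fold or more in distal crypts. Fibroblast and smooth muscle markers summed to 9.82 FPKM in distal and 8.21 FPKM in proximal crypts over 11 genes. Of the 4 measured, Des, the muscle intermediate filament gene, was higher by 2-fold or more in distal crypts (2.91 FPKM, against 0.0398 FPKM in proximal crypts), and Pdgfrb, a pericyte receptor gene, lower (0.410 FPKM in distal and 2.50 FPKM in proximal crypts). The deposited table called both. Endothelial markers summed to 1.54 FPKM in distal and 1.90 FPKM in proximal crypts over 5 genes. Epithelial markers, by which the label of crypts was checked, were abundant apart from Cldn3: none of the 11 measured of 12 was 2-fold apart, their median log2 ratio was 0.42, above that of all measured genes (0.09), and Krt20, a keratin of differentiated colonocytes, was at 581 FPKM in distal and 522 FPKM in proximal crypts. Lbp, Tlr4 and Nlrx1 lay in the direction of the epithelial markers, whose part in their differences was not tested.

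Of 98 further genes of the pathway on 5 lists, 85 were in the table and 65 were measured. Together 1 of the 65 was higher by 2-fold or more in distal crypts and 6 were so in proximal crypts (median log2 ratio -0.09), beside 3.71% and 3.91% of all measured genes. All 26 genes of the wider NF-kB, IKK and TAK1 list were under 2-fold apart (median 0.04), with Rela, the main NF-kB subunit, at 32.1 FPKM in distal and 22.1 FPKM in proximal crypts. All 10 measured genes of cytosolic nucleic acid sensing and the IRF family were under 2-fold apart too (median -0.03), and so were the 4 measured genes of C-type lectin receptor signalling (median -0.37). Clec7a, the receptor for fungal beta-glucan, was listed at 0 in distal and stood at 0.0715 FPKM in proximal crypts, and Clec4d and Clec4e were listed at 0 in both.

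On the list of inflammatory caspases, gasdermin and the IL-1 family, 1 of 15 measured genes was higher by 2-fold or more in distal crypts and 2 in proximal crypts (median 0.06). Il33, an alarmin of the IL-1 family, stood at 6.59 FPKM in distal and 1.94 FPKM in proximal crypts (3.39-fold higher in the distal library). P2rx7, the ATP-gated channel that can trigger inflammasomes, was at 1.76 FPKM in distal and 7.71 FPKM in proximal crypts, 4.38-fold lower in the distal library, and the authors' deposited table called both genes. Il1r1, the receptor of IL-1, was at 3.95 FPKM in distal and 9.74 FPKM in proximal crypts and was not called.

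Cytokine and other target genes of NF-kB were, of the 5 lists, the one furthest towards the proximal library. Of the 23 genes of this list in the table, 10 were measured and 13 were under 1 FPKM in both libraries. The 10 had a median log2 ratio of -0.87, with 4 higher by 2-fold or more in proximal crypts and none in the distal library. Ccl4, 1 of these 4, was listed at 0 in distal crypts. It passed the minimum of 1 FPKM only through its proximal value of 1.03 FPKM. Cxcl11, an interferon-induced chemokine whose listed locus is also that of a neighbour, stood at 4.57 FPKM in distal and 15.0 FPKM in proximal crypts. Lcn2, which binds bacterial iron carriers, was at 1.41 FPKM in distal and 5.42 FPKM in proximal crypts, and Ccl5, a chemokine that lymphocytes also produce, at 10.7 FPKM in distal and 24.1 FPKM in proximal crypts. The deposited table called none of the 12 genes of this list that it tested. The leukocyte markers lay in the same direction as this list, and their part in it was not tested.

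**Figure D4:**
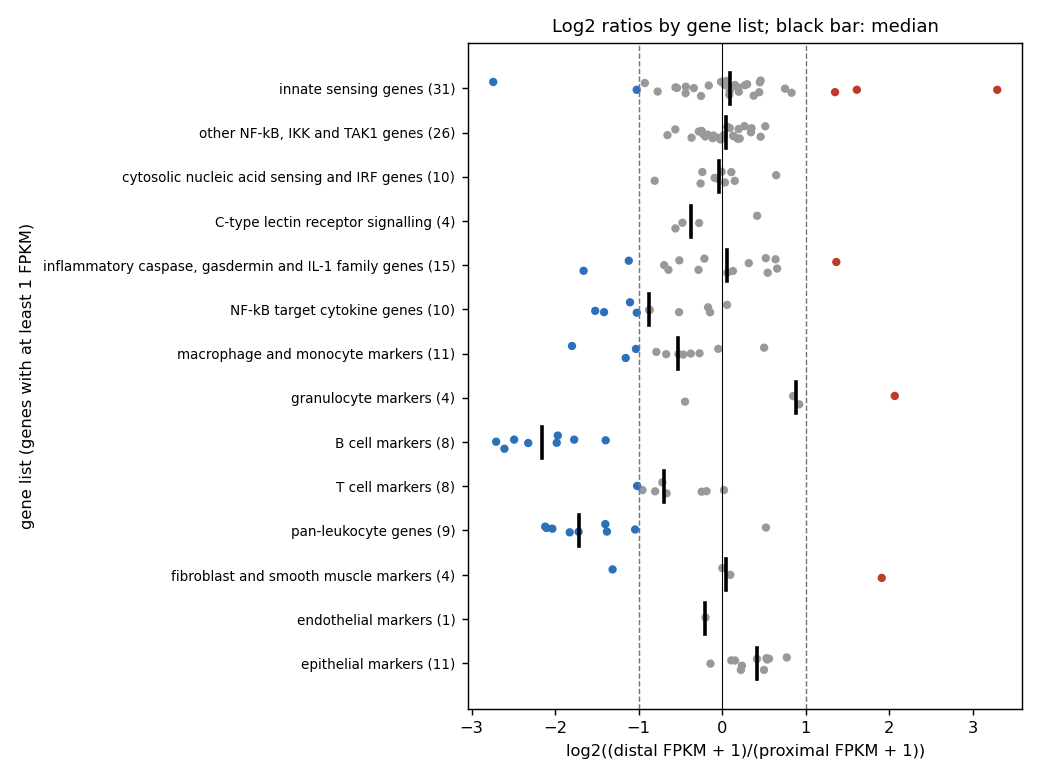
Log2((distal FPKM + 1)/(proximal FPKM + 1)) of each measured gene, by list, with 1 point per gene, the median as a black bar, dashed lines at a 2-fold difference and the number of measured genes in parentheses. The innate sensing genes centre near 0 with Lbp and Tlr5 far out on opposite sides, whereas all 8 B cell markers lie beyond the 2-fold line on the proximal side.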

How the data were processed

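The deposited table lists for each gene, per the file headers, a locus, 2 library values and a comparison of them (log2 fold change, statistic, p-value, q-value and call). Per the submitters' processing notes, CASAVA, TopHat2 and rn4 are the tools and build named for the RNA samples, without version numbers. The values were read as FPKM made by the authors, because they are not whole and differ in sum (463561 distal, 413026 proximal); no source used here names the program or the scaling behind them. The q-values and calls printed are those of the authors' deposited table, and its p-value matches the normal tail, two-sided, of the statistic within 2.76e-06. The log2 fold change of the authors' table was not used where it holds a placeholder for a value of 0.

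Of 16492 rows, 23 too low in data or failed and 1 repeated gene were left out, which kept 16468. Positions add 1 to the deposited start, since 1186 of 1187 olfactory receptor loci under 1100 bases are then whole codons long (multiples of 3). Read totals are not known here: 1 read, taken from the commonest deposited p with the other library at 0, stood for 0.113 FPKM in distal and 0.142 FPKM in proximal crypts for genes of about 942 bases. These floors cover counting error only. No member shares its locus with another gene.

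Log2 ratios used a pseudocount of 1 FPKM and genes with at least 1 FPKM in 1 library, and no test between regions was made. Every measured member was named with both values. Genes of the other lists were named where at least 2-fold apart with 5 FPKM or more in 1 library, at most 6 a list, beside defining markers at 0. Casp4, Rela, Clec7a, Ccl4, Krt20, S100a8, S100a9, Camp, Cd68, C1qa, C1qc, Des, Pdgfrb and Cldn3 are examples chosen after their values were seen. A gene this rule names is not reported here. The members and lists were chosen with earlier results of these data known. The counting was tested on simulated data. Python 3.11.15, pandas 2.3.3 and matplotlib 3.10.9 were used. Alternatives were the pseudocount, the minimum, the scaling, the fold limit and leaving out shared loci.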

Additional observations from a re-analysis of the deposited data

How the results depend on the processing

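No paired analysis was possible because each region has 1 library, and for the same reason no replicate could be left out. Rescaling the distal library so that the median of all genes is 0, or so that upper quartiles match, moved the median of the members to -0.00578 and -0.0725, so it turned sign; the second shifted the median of all genes by -0.16. Under the second rescaling 6 of 31 members changed sign (Irak1, Irak2, Irak4, Nfkbia, Tollip and Traf7), each close to 0 before, and 4 of these did under the first. A pseudocount of 5 FPKM left 2 members higher by that much in distal crypts (without Nlrx1) and 1 member higher by 2-fold or more in proximal crypts (Tlr5, without Casp1), and at a limit of 1.5-fold 5 members were higher in distal and 4 in proximal crypts. Adding 0.1 FPKM gave 4 in distal crypts, with Pglyrp1, and 3 in proximal crypts, with Irak3; both rescalings gave 3 in proximal crypts, with Nlrp6. The genes of the 5 further pathway lists higher by 2-fold or more in proximal crypts numbered 10 when 0.1 FPKM was added, 1 when 5 FPKM was added and 12 at 1.5-fold; those higher in distal crypts numbered 0 when 5 FPKM was added and 4 at 1.5-fold. Counts of members stayed within 1.5 times under the other settings tried. The log2 ratio of Lbp was 4.81 after adding 0.1 FPKM and 1.68 after adding 5 FPKM, and that of Tlr5 was -1.87 with 5 FPKM. Low members such as Irak3 and Pglyrp1 rest on few reads.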

Other observations

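Rows next to the members at least 2-fold apart were listed from the rn4 loci of the table, leaving out microRNA and olfactory receptor genes, a choice made after the values were seen. Beside Nlrx1 on chromosome 8, Pdzd3, at a gap of 1.1 kb, stood at 11.9 FPKM in distal and 3.28 FPKM in proximal crypts, and Ccdc153, at 5.6 kb, at 7.92 FPKM in distal and 0.444 FPKM in proximal crypts. Both had log2 ratios above 1 (1.59 for Pdzd3 and 2.63 for Ccdc153), like Nlrx1. On the other side Abcg4, at 4.7 kb, was at 0.855 FPKM in distal and 0.444 FPKM in proximal crypts, and C2cd2l, at 41.8 kb, at 32.4 FPKM in distal and 17.4 FPKM in proximal crypts (log2 ratio 0.86). Beside Lbp, Bpi, a related gene of the same family of lipopolysaccharide-binding proteins at a gap of 17.8 kb, was at 0.393 FPKM in distal and 0.139 FPKM in proximal crypts. Next to Tlr5, Disp1 was at 3.65 FPKM in distal and 3.99 FPKM in proximal crypts and Susd4 at 0.658 FPKM in distal and 0.173 FPKM in proximal crypts. Nearest to Tlr4 among measured genes, at a gap of 1173 kb, Trim32 was at 4.85 FPKM in distal and 5.87 FPKM in proximal crypts.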
